A study of Mus musculus with 11 samples.

Results

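This account covers 35 interferon-stimulated genes among the 22208 protein-coding genes of the mouse annotation, and the places near them where the transcription factors IRF4 and PU.1 were found on DNA. The genes were chosen by name, with earlier results of these data known, so their shares are descriptions and not a blind sample; all 35 were in the annotation. A peak was assigned to a gene when its position lay in the gene or within 20 kb of it, and a peak within 1 kb of an annotated transcript start of any protein-coding gene was called a promoter peak, otherwise a distal peak. Distances in bp from a start are to the nearest annotated transcript start, which can lie inside the gene. Peaks of one factor from different libraries were merged into 1 region when their positions lay less than 200 bp apart. By these rules 61 of 20058 IRF4 regions and 167 of 57563 PU.1 regions lay at the 35 genes.

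The measurements were chromatin immunoprecipitation with sequencing (ChIP-seq), in which DNA held by a protein is recovered with an antibody and places of high recovery are called as peaks. All immunoprecipitated libraries came from spleen B cells of B1-8i mice on the 129 background, whose gene-targeted antigen receptor recognises the hapten NP, so day 1 and day 3 share this receptor and the stimulation. The cells were cultured at 0.5 M cells per mL with 0.01 ng/mL of NP-Ficoll, with CD40L and with IL-2, IL-4 and IL-5 as cytokines, and were taken as activated B cells on day 1, or on day 3 once plasma cells had formed. Each day had 3 libraries for IRF4 and 2 for PU.1, and the design asks how binding differs between these days. The labels give neither the age of the mice nor the animals or cultures behind each replicate, so the spread between libraries may be technical. The input DNA that served the authors as background was pooled from peripheral or immature B cells and not from the stimulated cultures. The lists hold peaks and no expression values, so cell type markers and the activity of the 35 genes could not be checked here. A peak near a gene does not show that the factor acts on it.

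Interferon-stimulated genes are switched on when interferon binds its receptor and the complex ISGF3, which includes STAT2 and IRF9, settles on a DNA element called the ISRE in their promoters. The ISRE is a pair of sites for the interferon regulatory factor (IRF) family, to which IRF4 also belongs. IRF4 binds DNA weakly alone. In B cells it often binds with the Ets-family factor PU.1 on a composite element of an Ets and an IRF site, the EICE, or with AP-1 factors.

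The sequences below are the mm9 reference at the IRF4 regions that were called in the most IRF4 libraries and hold an ISRE, each cut to at most 300 bases around the peak and to the part that is in no exon. The ISRE searched was GAAA, any 2 bases, GAAA. Capitals mark every match on either strand, with overlapping matches run together, and each is written 5′ to 3′ on the strand of the named gene.
Ifit1 promoter, chr19:34715234-34715360, plus strand: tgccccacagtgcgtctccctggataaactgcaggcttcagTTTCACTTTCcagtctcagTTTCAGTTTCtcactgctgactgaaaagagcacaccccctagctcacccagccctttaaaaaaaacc
Isg15 promoter, chr4:155574928-155575204, minus strand: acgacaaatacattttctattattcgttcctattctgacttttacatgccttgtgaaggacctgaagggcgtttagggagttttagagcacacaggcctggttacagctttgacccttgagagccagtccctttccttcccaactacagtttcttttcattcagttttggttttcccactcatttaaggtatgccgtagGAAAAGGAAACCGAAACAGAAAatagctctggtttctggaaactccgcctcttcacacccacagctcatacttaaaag
Zbp1 promoter, chr2:173044425-173044634, minus strand: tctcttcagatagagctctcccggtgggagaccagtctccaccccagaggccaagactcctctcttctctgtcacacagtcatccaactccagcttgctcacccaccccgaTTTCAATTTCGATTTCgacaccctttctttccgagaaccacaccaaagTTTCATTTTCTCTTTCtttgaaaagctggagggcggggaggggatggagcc
Igtp upstream site, chr11:57997105-57997344, plus strand: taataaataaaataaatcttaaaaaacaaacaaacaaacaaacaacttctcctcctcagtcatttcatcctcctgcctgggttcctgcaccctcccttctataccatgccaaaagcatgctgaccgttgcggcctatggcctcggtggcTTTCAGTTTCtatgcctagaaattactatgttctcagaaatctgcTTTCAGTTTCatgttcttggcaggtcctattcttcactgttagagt
Ifi204 promoter, chr1:175697051-175697309, minus strand: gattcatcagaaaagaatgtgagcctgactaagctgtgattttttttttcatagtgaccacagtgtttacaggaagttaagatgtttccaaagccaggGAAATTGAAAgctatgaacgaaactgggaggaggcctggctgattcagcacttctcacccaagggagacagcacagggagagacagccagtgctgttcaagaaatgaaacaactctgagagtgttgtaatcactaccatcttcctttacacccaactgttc
Mnda promoter, within 20 kb of Ifi203, chr1:175843054-175843254, minus strand: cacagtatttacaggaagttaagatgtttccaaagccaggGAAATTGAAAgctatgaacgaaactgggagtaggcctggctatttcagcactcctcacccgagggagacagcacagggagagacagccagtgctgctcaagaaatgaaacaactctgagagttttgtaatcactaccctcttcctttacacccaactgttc
The stretches hold 2 matches at Ifit1, 3 at Isg15, 4 at Zbp1, 2 at Igtp and 1 each at Ifi204 and Mnda. Motifs are counted from here on in the 200 bp around a peak position. The Mnda match lies outside that window around the position of the merged region. Counts over group-list peaks use the group-list position instead, which can differ, so they can include this match. The Ifi204 and Mnda stretches are near-copies from 1 gene cluster, identical at 192 of 201 compared bases (95.5%), and whether short reads from one were placed at the other was not tested. The Gbp3 region, called in more IRF4 libraries than any of these, holds its ISRE in an exon and is not printed. A match is a description of the letters, not a measured binding site.

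IRF4 was found near most of these genes, but seldom in every library of a day. At 27 of the 35 genes at least 1 of the 6 IRF4 libraries had a peak, beside 49.8% of all genes by the same count, and Bst2, Eif2ak2, Ifih1, Mx2, Oas1a, Oas2, Oas3 and Parp14 had none. On day 1 the IRF4 libraries had peaks at 0, 15 and 19 of the 35 genes in replicates 1, 2 and 3. Those are shares of 0%, 42.9% and 54.3%, beside 3.65%, 31.1% and 30.3% of all protein-coding genes. On day 3 the counts were 12, 11 and 21, or 34.3%, 31.4% and 60%, beside 11.6%, 6.43% and 21.2% of all genes. The mean was 11.3 ± 10.0 genes on day 1 and 14.7 ± 5.51 on day 3 (SD, n = 3 each), and the libraries of the days overlapped. Replicate 1 of day 1 stands apart, with 825 peaks in all against 9326 and 8929 in its partners, and held none of the 61 regions.

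As a ratio to all genes, though not in percentage points on day 3, the shares stood higher at the gene starts. Within 1 kb of their own start, 0, 7 and 10 of the 35 genes had an IRF4 peak in the day 1 libraries (0%, 20% and 28.6%), beside 0.261%, 4.49% and 4.01% of all genes. In the day 3 libraries there were 8, 6 and 14 (22.9%, 17.1% and 40.0%), beside 1.15%, 0.612% and 3.37%. The mean count was 5.67 ± 5.13 on day 1 and 9.33 ± 4.16 on day 3 (SD, n = 3 each), again with overlap between days. Every library except day 1 replicate 1 showed a larger share among the 35 genes than among all genes, at both distances. The lists do not end at one level of enrichment, so counts of different libraries or days also carry the depth of each list.

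**Figure D1:**
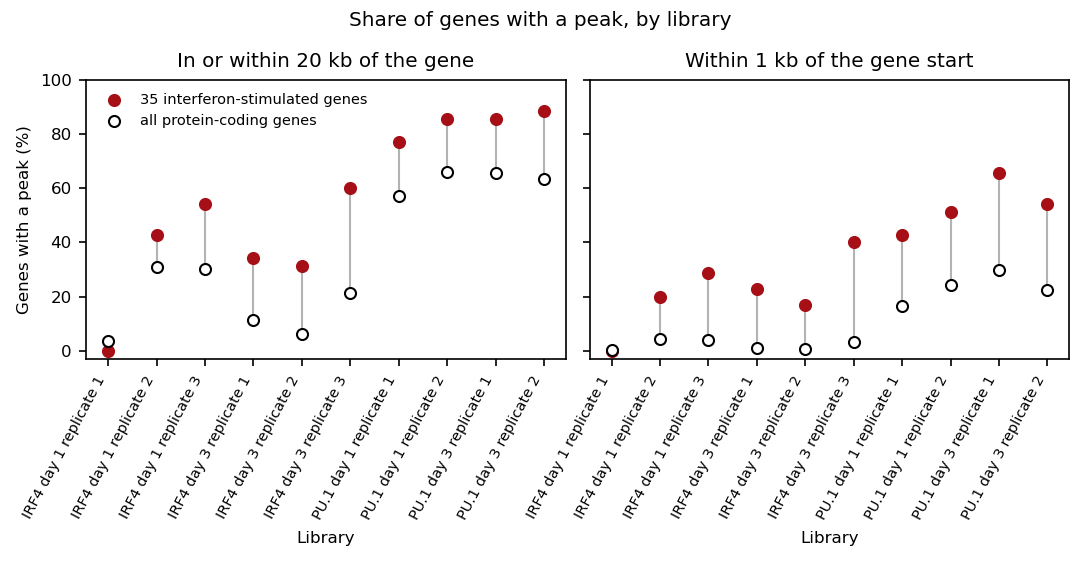
The vertical axis gives the percent of genes with a peak in each library, in or within 20 kb of the gene (left) and within 1 kb of its start (right), with filled points for the 35 interferon-stimulated genes and open points for all 22208 protein-coding genes. Filled points lie above open points in every library except IRF4 day 1 replicate 1, where no member has a peak.

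PU.1 was the more widespread factor. It had peaks at 27 and 30 of the 35 genes in the day 1 libraries (77.1% and 85.7%, beside 57.0% and 65.9% of all genes). In the day 3 libraries it had peaks at 30 and 31 (85.7% and 88.6%, beside 65.8% and 63.4%). Within 1 kb of the start the day 1 counts were 15 and 18 (42.9% and 51.4%, beside 16.6% and 24.5%). The day 3 counts were 23 and 19 (65.7% and 54.3%, beside 30.0% and 22.3%). The grid of calls by gene and library shows that Bst2 and Oas1a had no peak of either factor in any library.

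**Figure D2:**
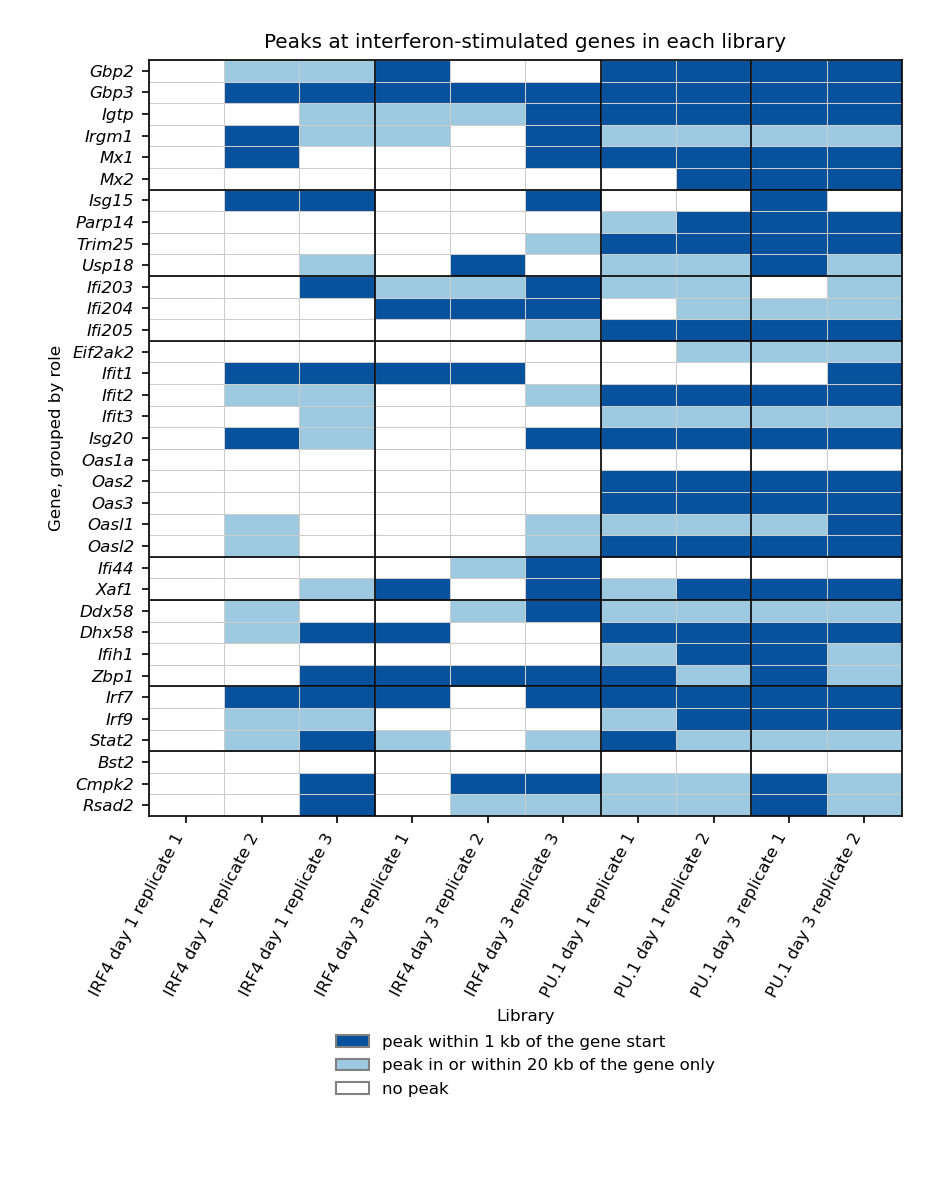
Each row is 1 of the 35 genes, grouped by role, and each column 1 of the 10 libraries; dark cells have a peak within 1 kb of the gene start, light cells a peak only farther off but within 20 kb, white cells none. Gbp3 has a promoter peak in 5 of the 6 IRF4 libraries and in all 4 PU.1 libraries, and the first IRF4 column is empty.

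The authors also deposited 1 list for each factor and day whose peaks recur in more than 1 library, the group list. In the IRF4 group lists 5 of the 35 genes had a peak on day 1 (14.3%, beside 10.0% of all genes) and 12 on day 3 (34.3%, beside 8.47%). The day 1 genes were Gbp3, Ifit1, Irf7, Irf9 and Isg15. The day 3 genes were Cmpk2, Ddx58, Gbp3, Ifi203, Ifi204, Ifi44, Ifit1, Igtp, Rsad2, Stat2, Xaf1 and Zbp1, so Gbp3 and Ifit1 alone were in both, beside 5.42% of all genes. Peaks within 1 kb of the gene's own start were listed for 4 genes on day 1 (11.4%, beside 1.00%) and 6 on day 3 (17.1%, beside 0.793%). The day 1 count is the less steady: requiring 2 of the remaining libraries left 0 genes without replicate 2 and 0 without replicate 3, and 5 without replicate 1. On day 3 it left 9 without replicate 1, 7 without replicate 2 and 6 without replicate 3. With both lists cut at a common lowest enrichment of 20.9, the counts were 5 genes on day 1 and 9 on day 3.

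Many of the IRF4 peaks at these genes were at promoters. Of the group-list peaks at the 35 genes, 5 of 5 on day 1 (100%, exact 95% binomial interval 47.8 to 100) and 8 of 12 on day 3 (66.7%, 34.9 to 90.1) were promoter peaks. Over the peaks of the same lists within 20 kb of any gene, which is the like comparison, the shares were 11.0% and 10.8%, and over all peaks 8.37% and 8.50%. In the union of libraries, 34 of 61 regions (55.7%) lay in a promoter, beside 14.5% of the IRF4 regions within 20 kb of any gene and 10.9% of all IRF4 regions. Of these 34, 24 were in the promoter of 1 of the 35 genes, covering 20 genes (beside 9.77% of all genes with a promoter peak in any library), and 10 in the promoter of a neighbour. The 24 lay close in, at a median of 91.5 bp from the start, 19 within 250 bp and 18 upstream. Promoter regions were called in 2 or more libraries in 15 of 34 cases and distal regions in 7 of 27, beside 18.2% of all promoter and 21.2% of all distal IRF4 regions. The intervals cover counting error only.

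**Figure D3:**
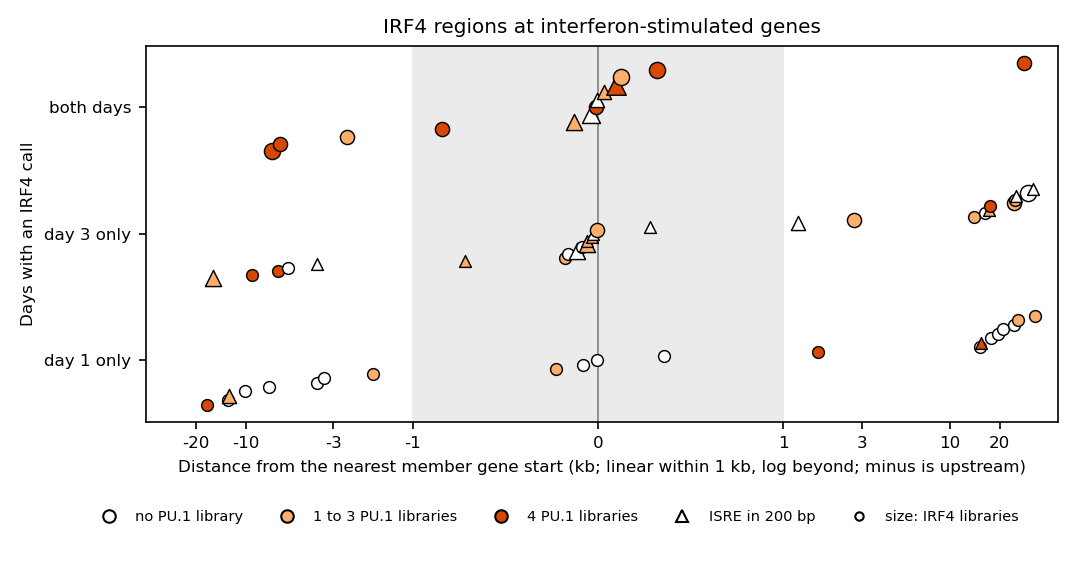
Each point is 1 of the 61 IRF4 regions at the 35 genes, placed by its distance in kb from the nearest member gene start (linear within 1 kb, which is shaded, and log beyond) and by the days on which it was called; height within a band only separates points, fill gives PU.1 libraries, triangles hold an ISRE and size grows with the number of IRF4 libraries. The regions crowd at the start, and the 24 in member promoters have a median distance of 91.5 bp.

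PU.1 lay within 200 bp of some of these IRF4 peaks, at promoters and away from them. On day 1, 2 of 5 IRF4 peaks at the genes had a PU.1 group-list peak of the same day (40.0%, interval 5.27 to 85.3), beside 56.8% of all IRF4 peaks. On day 3, 5 of 12 did (41.7%, 15.2 to 72.3), beside 64.1%. Both intervals hold the share of the whole list, so a difference was not detectable with so few sites. Split by place on day 3, 3 of 8 promoter peaks and 2 of 4 distal peaks had PU.1, beside 70.1% and 63.5% in the whole list. The day 3 share rests on few sites and was 25% without IRF4 replicate 1, 62.5% without replicate 2 and 33.3% without replicate 3. Counting PU.1 in any library of the day gave 3 of 5 on day 1 (60%, beside 64.3%) and 8 of 12 on day 3 (66.7%, beside 81.0%).

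Over the 61 regions, PU.1 in any of the 4 libraries accompanied 34 (55.7%, beside 34.9% of all IRF4 regions). It was present at 8 of 21 regions called on day 1 only (38.1%, beside 19.9% of such regions in the genome) and at 15 of 27 called on day 3 only (55.6%, beside 52.0%). It was present at 11 of 13 regions called on both days (84.6%, beside 77.4%). Promoter and distal regions at the genes were alike in this count, but the shares over all IRF4 regions were not. PU.1 was at 19 of 34 promoter regions (55.9%, beside 47.9%) and 15 of 27 distal regions (55.6%, beside 33.3%). For regions called on day 1 only the shares were 40.0% in promoters (beside 37.2%) and 36.4% in distal regions (beside 17.9%). As the regions at the genes lay more often in promoters, the shares split by place are the like comparison. The 2 regions called on both days without PU.1 by the 200 bp rule were the promoters of Ifit1 and Irgm1. The EICE, the element PU.1 and IRF4 share, was found in 5 of the 34 promoter regions and 1 of the 27 distal regions. Its share over all IRF4 regions was not computed, so these counts have no comparison.

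ISRE letters were common under these peaks. In the 200 bp around the peak, the ISRE was present on either strand in 3 of 5 day 1 peaks at the genes (60%, interval 14.7 to 94.7) and 7 of 12 day 3 peaks (58.3%, 27.7 to 84.8), beside 7.53% and 12.8% of all peaks in those lists. Among day 3 promoter peaks it was in 5 of 8 (62.5%), beside 20.4% of all promoter peaks. Among day 3 peaks at the genes without PU.1 it was in 5 of 7 (71.4%), beside 17.4%, and among those with PU.1 in 2 of 5 (40.0%), beside 10.2%. The 12 day 3 peaks, the 8 in promoters and the 7 without PU.1 each include both near-copies, Ifi204 and Mnda. Those 2 are not independent of each other. The EICE (GGAA, any 2 bases, GAAA) was in 1 of 5 and 2 of 12 peaks (20% and 16.7%), beside 22.0% and 30.0%. The AP-1 site (TGACTCA or TGAGTCA) was also in 1 of 5 and 2 of 12, beside 24.9% and 18.3%. A PU.1 site (GAGGAAGT) was in 0 of 5 and 1 of 12, beside 9.09% and 13.2%. The ISRE and EICE patterns differ at 1 base and can overlap.

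The promoters themselves carry the element irrespective of IRF4. From 250 bp before to 50 bp after the gene start, 20 of 35 genes had an ISRE (57.1%), beside 3.83% of 22201 promoters, and 3 had an EICE (8.57%), beside 2.86%. An IRF4 promoter peak in at least 1 library was found for 12 of the 20 genes with an ISRE there and for 8 of the 15 without. Bst2 and Oas1a, each with 2 matches, had no IRF4 or PU.1 peak.

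**Figure D4:**
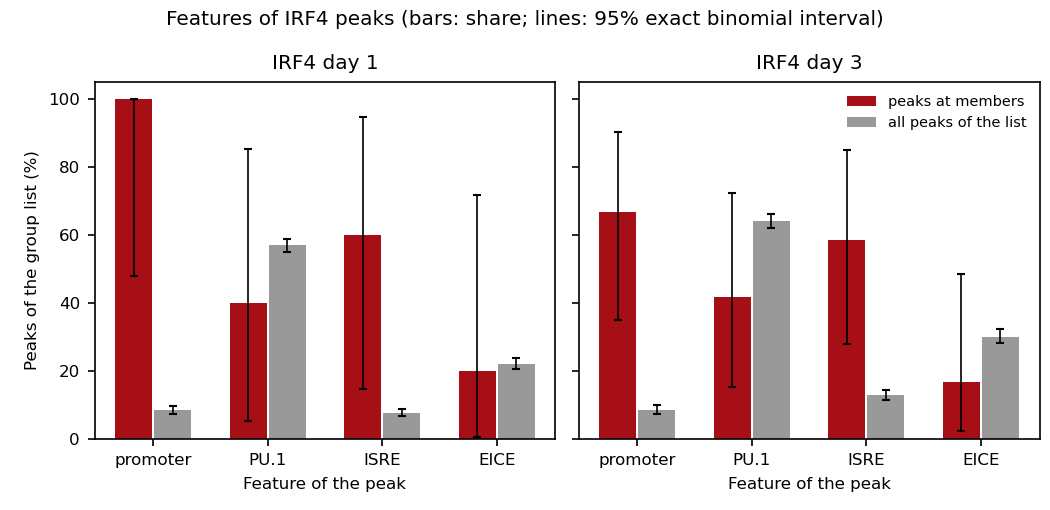
Bars give the percent of IRF4 group-list peaks that are promoter peaks, have PU.1, hold an ISRE or hold an EICE, for peaks at the 35 genes (red; 5 on day 1, 12 on day 3) and all peaks of the list (grey), and lines give exact 95% binomial intervals. For promoter and ISRE the intervals of the red and grey bars are apart on both days, and for PU.1 and EICE they overlap on both days.

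The 3 transcription factors are Irf7, the amplifier of type I interferon production, and Irf9 and Stat2, subunits of ISGF3. Irf7 had an IRF4 region 1506 bp inside the gene and 317 bp after an internal transcript start (chr7:148450667-148451301, intron), with the authors' fold enrichment over input at 34.3 and 39.7 in day 1 replicates 2 and 3 and 37.8 in day 3 replicate 3. The other 3 libraries had no call at that region. PU.1 was called there in all 4 libraries, at 298 and 384 on day 1 and 899 and 609 on day 3. Its IRF4 call is thus shared by both days, and another IRF4 region 280 bp after a transcript start, with an ISRE, was called in day 3 replicate 1 at 21.8. At Irf9 the region called was in the promoter of the proteasome activator gene Psme2, 192 bp after its start (chr14:56209349-56209798), at 22.5 and 28.5 in day 1 replicates 2 and 3 and in no day 3 library. A PU.1 region that overlaps it, called in 3 PU.1 libraries, had its position more than 200 bp away in all but day 3 replicate 2. The IRF4 region was the sole one called in 2 or more day 1 libraries and no day 3 library. Upstream of Stat2, 4452 bp before the start of Apof (chr10:127700378-127701325), IRF4 was called at 51.9 in day 1 replicate 2 and at 23.3 and 21.3 in day 3 replicates 1 and 3, with PU.1 in all 4 libraries. The Stat2 promoter itself had 1 IRF4 call, at 31.3 in day 1 replicate 3, 5 bp from the start.

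The sensors are Ddx58, the RNA sensor RIG-I, its relatives Dhx58 and Ifih1, and the Z-nucleic acid sensor Zbp1. At Zbp1 the region 61 bp upstream (chr2:173044292-173044913) was called at 24.3, 18.1 and 26.6 in the 3 day 3 libraries and in no day 1 library. Day 1 replicate 3 had a separate region 368 bp inside the gene, at 38.3, so the gene was not free of IRF4 on day 1. PU.1 joined at the upstream region in 1 library, day 3 replicate 1, at 77.5. A further PU.1 region overlaps its far end, with its position more than 200 bp away, and was called at 28.2 in day 1 replicate 1 and 24.4 in day 3 replicate 1. In Ddx58 the group-list peak lay in an intron 2671 bp from the start (chr4:40183941-40184293), at 19.0 and 28.3 in day 3 replicates 2 and 3, with PU.1 in both day 1 libraries and 1 day 3 library. The promoters of Ddx58 and Dhx58 also carried IRF4 calls in single libraries of a day: Ddx58 in day 3 replicate 3 at 20.4, and Dhx58 in day 1 replicate 3 at 25.0 and day 3 replicate 1 at 16.6. Ifih1 had PU.1 peaks but no IRF4 peak.

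The interferon-inducible GTPases act on viruses (Mx1, Mx2) or on vacuoles that hold pathogens (the guanylate-binding proteins Gbp2 and Gbp3 and the immunity-related GTPases Igtp and Irgm1). Gbp3 had the most widely called IRF4 region of the 35 genes, 457 bp inside the gene and 98 bp after a transcript start (chr3:142223220-142223796, exon). Its fold enrichment was 45.5 and 34.5 in day 1 replicates 2 and 3 and 45.7, 33.1 and 24.3 on day 3. PU.1 was called there in all 4 libraries, at 175 and 313 on day 1 and 377 and 349 on day 3, and the 200 bp window holds 1 ISRE and 1 EICE. Both factors were therefore found at Gbp3 on both days. Near Igtp, the region 15.8 kb upstream (chr11:57997067-57997477, intergenic) was called at 27.7, 21.2 and 36.5 in the 3 day 3 libraries and in no day 1 library. Here PU.1 too was called in both day 3 libraries, at 18.4 and 17.5, and in neither day 1 library. At the Irgm1 start IRF4 was called in 1 library of each day, at 54.7 in day 1 replicate 2 and 21.6 in day 3 replicate 3, without PU.1 and with 2 ISRE matches. Mx1 likewise had 1 call on each day, 12 bp from its start, at 26.2 in day 1 replicate 2 and 21.3 in day 3 replicate 3, beside PU.1 in all 4 libraries. Gbp2 had an ISRE-holding region 30 bp upstream that was called in day 3 replicate 1 alone, at 24.2, and Mx2 had PU.1 but no IRF4.

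Isg15 encodes the ubiquitin-like protein that is attached to viral and host proteins, Usp18 removes it, and Trim25 is a ubiquitin ligase for RIG-I. The Isg15 region 128 bp upstream (chr4:155574818-155575328) was called at 26.8 and 24.8 in day 1 replicates 2 and 3 and at 25.6 in day 3 replicate 3. It holds 3 ISRE matches and had PU.1 in 1 library, day 3 replicate 1, at 15.2. Usp18 had an IRF4 call 56 bp upstream in day 3 replicate 2 alone, at 18.2, with 2 ISRE matches and PU.1 in day 3 replicate 1. Trim25 had IRF4 calls in day 3 replicate 3 alone, the nearer 24.6 kb from its start, and Parp14, an ADP-ribosyltransferase, had none.

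The PYHIN genes Ifi203, Ifi204 and Ifi205 belong to a cluster of DNA-binding proteins on chromosome 1. The Ifi204 region 110 bp upstream (chr1:175697008-175697393) was called at 48.5, 39.4 and 30.5 in the day 3 libraries and in no day 1 library. Those values place it among the top 9.7%, 13.2% and 22.2% of the peaks of each list. The Mnda region 52 bp upstream (chr1:175842914-175843312), which is the group-list peak of Ifi203, had 21.3, 28.1 and 33.9 on day 3 and likewise no call on day 1. Neither had PU.1 within 200 bp in any library. The pair are the near-copies printed above and are not independent evidence of each other. The start of Ifi203 itself had single calls on each day, at 22.3 in day 1 replicate 3 and 21.0 in day 3 replicate 3. Ifi204 had a further day 3 group-list peak, 758 bp before the start of its neighbour AI607873 (chr1:175672320-175672744). That region was called at 19.5 and 16.8 in day 3 replicates 1 and 3 and in no day 1 library. PU.1 was called there at 33.1 in day 1 replicate 2 and at 73.2 and 100 on day 3.

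The IFIT proteins bind viral RNA, Oas1a, Oas2 and Oas3 make the messenger that activates RNase L, Eif2ak2 (PKR) halts translation and Isg20 degrades RNA. Of these 10 genes, Ifit1 alone had a group-list IRF4 peak. Its region 36 bp upstream (chr19:34715012-34715617) was called at 40.7 and 34.3 in day 1 replicates 2 and 3 and at 40.6 and 39.1 in day 3 replicates 1 and 2, with 2 ISRE matches and no PU.1 position within 200 bp in any library. A PU.1 region that overlaps its edge (chr19:34714737-34715135) was called at 20.5 in day 3 replicate 2 alone, so PU.1 was not wholly missing from that promoter. Isg20 had IRF4 843 bp upstream at 25.1 in day 1 replicate 2 and 16.8 in day 3 replicate 3, under a PU.1 peak of 204 and 270 on day 1 and 579 and 296 on day 3. Ifit2 had IRF4 2495 bp upstream at 25.7 in day 1 replicate 2 and 36.0 in day 3 replicate 3. The region 6279 bp upstream of Oasl1, which also counts for Oasl2, had 29.1 and 17.9 in the same libraries, with PU.1 in all 4. Oas1a, Oas2, Oas3 and Eif2ak2 had no IRF4 call, and Ifit3 had calls in day 1 replicate 3 alone.

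Among the remaining genes, Cmpk2 and Rsad2 (viperin, which makes a nucleotide that stops viral polymerases) are neighbours and share a region 127 bp after the start of Cmpk2 (chr12:27153876-27154317). It was called at 30.2 in day 1 replicate 3 and at 20.9 and 24.7 in day 3 replicates 2 and 3, with 2 EICE matches and PU.1 in 1 day 3 library. Between the pair, 3749 bp upstream of Rsad2, a region with 2 ISRE matches was called at 31.4 in day 3 replicate 3 alone. Bst2, which tethers budding virions, had no call. Xaf1, a pro-apoptotic protein, had a region 6 bp upstream (chr11:72114887-72115309) at 28.9 and 21.6 in day 3 replicates 1 and 3, with PU.1 at 22.6 and 16.6 in both day 3 libraries and in no day 1 library. The Ifi44 region lay in an intron 1236 bp from the start (chr3:151411453-151411796), at 28.2 and 16.8 in day 3 replicates 2 and 3, with 1 ISRE and no PU.1. At this Xaf1 region, as at the Igtp site, calls of both factors were found on day 3 and not on day 1.

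Across days, 4 of the 61 regions were called in all 3 day 3 libraries and no day 1 library, those of Ifi204, Mnda, Igtp and Zbp1, beside 0.359% of all IRF4 regions. The reverse pattern was found at 0 regions, beside 0.189%. Ifi204 and Mnda, counted here as separate regions, are the near-copies printed above and are not independent of each other. With 2 or more libraries of one day and none of the other there were 8 (beside 1.97% of all IRF4 regions) on day 3 and 1 (beside 4.18%) on day 1. An exact permutation test of called against not called, 3 libraries against 3 and two-sided, cannot go below p = 0.1, and its lowest adjusted p over all 20058 regions was 1.00. No region at the 35 genes or elsewhere passed it, and 0 had an unadjusted p under 0.05. These calls also move with the libraries: day 1 replicate 1 called none of the 61 regions, and without it the reverse count was 1, the Psme2 region. A region seen in 1 library was the usual case, 39 of 61 (63.9%, beside 79.1% of all IRF4 regions), of which 15 came from day 1 replicate 3 and 15 from day 3 replicate 3.

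PU.1 was in the group lists of both days at most of these genes. It was listed at 27 of the 35 on day 1 (77.1%, beside 52.3% of all genes) and 29 on day 3 (82.9%, beside 54.4%), at 26 on both (beside 46.3%). Within 1 kb of the start there were 12 (34.3%, beside 14.1%) and 17 (48.6%, beside 18.7%). Ifi203 was listed on day 1 only and Eif2ak2, Ifi204 and Mx2 on day 3 only. Each of them nevertheless had PU.1 calls in replicate 2 of the other day. Ifi203 had up to 165 on day 3, and on day 1 Eif2ak2 had 25.4, Ifi204 up to 49.8 and Mx2 34.0. Bst2, Ifi44, Ifit1, Isg15 and Oas1a were on neither PU.1 list, and of these Ifi44, Ifit1 and Isg15 had a group-list IRF4 peak. Of 167 PU.1 regions, 40 were called in all 4 libraries (24.0%, beside 24.7% of all PU.1 regions). Regions in both day 3 and no day 1 library numbered 7 of the 167, which is near the share over all PU.1 regions (3.78%), and the reverse 0 (beside 2.38%). Those 7 included the Igtp and Xaf1 sites and a region 71 bp upstream of Irf7, at 29.6 and 19.4. The Igtp values (18.4 and 17.5) and the Xaf1 values (22.6 and 16.6) were not far above the ends of the PU.1 lists, 14.9 to 15.1. Promoter peaks made up 36.2% of the PU.1 group-list peaks at the genes on each day, beside 17.8% and 23.6% of those within 20 kb of any gene, and 14.3% and 19.6% of all PU.1 peaks, on day 1 and day 3. PU.1 peaks seldom had IRF4: 2 of 58 group-list peaks at the genes on day 1 (3.45%, beside 6.45%) and 5 of 69 on day 3 (7.25%, beside 5.88%). Among promoter PU.1 peaks alone it was 2 of 21 on day 1 (9.52%, interval 1.17 to 30.4), beside 3.66% of all promoter PU.1 peaks. On day 3 it was 3 of 25 (12.0%, 2.55 to 31.2), beside 2.82%. Both intervals hold the share of the whole list.

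A set of promoters carried PU.1 in all 4 libraries and no IRF4 peak within 200 bp. Among them were Oas3, at 70.5 and 102 on day 1 and 197 and 82.3 on day 3 (78 bp upstream), and Oas2, at 56.0 and 95.2 on day 1 and 177 and 124 on day 3 (40 bp upstream). Both have an ISRE in the promoter and no IRF4 call in any library. Trim25 had 35.6 and 57.3 on day 1 and 200 and 90.2 on day 3, 10 bp upstream. Igtp had 32.4, 58.4, 83.4 and 65.5 in the same order at 67 bp upstream, and Ifit2 45.3, 57.0, 76.4 and 37.7 at 85 bp upstream. Oasl2 and Ifi205 were weaker, at 15.7 to 43.4 and 22.6 to 33.2. At Mx1, Dhx58, Gbp3, Irf7 and the upstream Isg20 site the PU.1 peak did have IRF4 within 200 bp in at least 1 library. In all, 13 genes had a promoter PU.1 peak in every PU.1 library (beside 12.5% of all genes) and 9 in none (beside 64.7%).

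Other genes of the pathway were counted by the same group-list rule, beside 10.0% (IRF4 day 1) and 8.47% (day 3) of all genes. For PU.1 the shares of all genes were 52.3% on day 1, 54.4% on day 3 and 46.3% on both days. None of 7 interferon ligand genes had an IRF4 peak on either day. Among receptor and signalling genes, the kinases Tyk2 and Jak2 and the feedback inhibitors Socs1 and Socs3 had one on both days, and the kinase Jak1 on day 3. Of 14 genes that sense nucleic acids or relay the signal to interferon, 5 had one on day 1 and 6 on day 3. The nucleic acid receptors Tlr3 and Tlr9, Irf5 and the cGAS gene (E330016A19Rik in the annotation) had one on both days, Irf3 on day 1, and Tlr7 and the adaptor gene Ticam1 on day 3. PU.1 was listed on both days at all 14 of these sensing genes, and at 4 and 1 of the ligand genes on day 1 and day 3. Irf3 had 23.2 and 34.9 in day 1 replicates 2 and 3 and no call on day 3. Of 39 further interferon-inducible genes, 15 had an IRF4 group-list peak on day 1 and 14 on day 3, and 35 had PU.1 on each day. On both days these were Nmi, Gbp5, Gbp7, Pml, Daxx, Tapbp, Psmb8, Psmb9, Tap1 and Cd274, on day 1 only Herc6, Mlkl, Lgals3bp, Dtx3l and Parp9, and on day 3 only Mnda, Trim30a, Irf2 and Ddx60. Neighbours such as Psmb8, Psmb9 and Tap1, which make and carry peptides for antigen presentation, share the same peaks.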

How the data were processed

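Per the series' design text, reads were aligned to mm9 (the build named in the submitters' processing notes) and QuEST was used for enrichment over input. The aligner, the QuEST version and its thresholds were not given in the sources used here. A deposited list gives peaks with a fold enrichment, a linear ratio to input that the authors computed. It was used within a list, and across lists only for the common lowest enrichment and beside the ends of lists. The lists hold no read counts, so depth is unknown. They end at lowest folds of 20.9 to 21.9 (IRF4 day 1), 15.0 to 16.9 (IRF4 day 3) and 14.9 to 15.1 (PU.1). Group lists copy lines of library lists: 767 of replicate 1 and 1729 of replicate 2 for IRF4 day 1, 1772 and 192 for IRF4 day 3, and replicate 1 alone for PU.1. Positions are as deposited, with no statement of whether they start at 0 or 1.

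Genes and sequences came from GENCODE M1 and the mm9 reference. Python 3.11.15, pandas 2.3.3 and scipy 1.17.1 were used, with exact binomial intervals (Clopper-Pearson, 95%) and an exact permutation test with Benjamini-Hochberg adjustment; the code was tested on simulated peaks. Motifs were searched in 200 bp windows. Named were all genes with a group-list IRF4 peak or a region in all IRF4 libraries of a day, and PU.1-only genes with a promoter site in all 4 libraries; other genes given with values were chosen after their values were seen. Alternatives changed the window, promoter and partner distance, list threshold and libraries. Of the pathway genes listed, 4 matched through another symbol and 1 was not matched. Values of 1 signalling gene are not reported here. The members and lists were chosen with earlier results of these data known. Tandem copies (Ifit, Oas, Gbp and Ifi200 genes) can share reads. The input library enters no comparison.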

Additional observations from a re-analysis of the deposited data

How the results depend on the processing

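Of 103 alternatives, 94 stayed within 1.5 times the value given for counts or within its binomial interval for shares, and 9 did not. Some of the 94 could hardly move. The 11 alternatives for regions that differ between days could only give 0, because the test cannot reach its threshold. The day 1 shares rest on 5 peaks, with an interval as wide as 5.27 to 85.3 for PU.1. Genes with a group-list IRF4 peak on day 1 were 5, and 8 with 50 kb around genes and 3 in the stronger 50% of the list; leaving out 1 library gave 0 to 5, with 0 without replicate 2 or without replicate 3. On day 3 they were 12, and 6 in the stronger 50%; leaving out 1 library gave 6 to 9, with 7 without replicate 2 and 6 without replicate 3. The cause was not tested, but leaving out a library means that both remaining ones must hold the peak. Regions in every day 3 and no day 1 library were 4, and 2 with 5 kb around genes, where the Igtp and Mnda sites fall outside by construction; leaving out 1 library gave 4 to 6. The reverse count was 0, and 0 to 1 when 1 library was left out (1 without day 1 replicate 1). The PU.1 counts and the shares in promoters or with PU.1 stayed within those limits under every alternative run, although the day 3 share with PU.1, 41.7%, ran from 25.0% to 62.5% when 1 library was left out. The day 1 shares could not be computed without IRF4 replicate 2 or without replicate 3, where no peak at the genes was left.

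Replicate numbers in the sample descriptions differ from those in the titles for some libraries and do not pair the days. With the replicate number as a block, an exact sign-flip test found 0 differing regions and cannot go below 0.250 with 3 pairs; without the block the count was also 0. The union-region counts in every day 3 or day 1 library were added after seeing the data. The lists hold no depth, so binding below the level at which a list ends is not seen.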
